A study of Arabidopsis thaliana with 28 samples.

Results

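Xylem stem cells (Xyl) of the Arabidopsis thaliana root tip were set against non-stem cells (NSC) of the same organ. The 8 libraries, of 28 in the series, were chosen by their labels: 4 of cells positive for TMO5:3xGFP (Xyl) and 4 of cells negative for AGL42:GFP (NSC). Of the 33201 genes in the table of FPKM (fragments scaled by transcript length and by the mapped reads of the library), 18776 had at least 1 FPKM in at least 3 of these 8 samples and were tested. All plants were Col-0 seedlings grown for 5 days, and the root tip was cut, protoplasted and sorted by fluorescence. In the Xyl line the promoter of TMO5, a gene of xylem precursor cells, drove 3 linked copies of GFP, so the sort itself selected cells with an active TMO5 promoter. In the NSC line GFP reported AGL42, which marks the stem cell niche, and every GFP-negative cell could enter the sort. Since the groups came from different reporter lines, the line and the cell population cannot be told apart. The study used the non-stem cells as the control that defined stem cell-enriched genes, and compared stem cell types with each other to place these genes. A further 16 samples of 5 other stem cell types served as a second comparison: cortex endodermis initials (CEI), protophloem (Protophlo), initials of the epidermis and lateral root cap (Epi/LRC), columella stem cells (CSC) and the quiescent center (QC). The 4 AGL42:GFP-positive samples of the whole stem cell niche (SCN) entered no tested contrast and added to the estimate of spread in the second one. Together with the 5 other types and NSC, they are counted where Xyl samples are set against the other 24 samples.

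Xylem forms from precursor cells that lie against the quiescent center and divide to build the files of the vascular cylinder. The bHLH proteins TMO5 and LHW act as a pair in these cells and drive divisions that add cell files, through the cytokinin-activating enzymes LOG3 and LOG4, while AHP6 blocks cytokinin signalling along the xylem axis. Further up the root, NAC factors of the VND family and MYB46 switch on the secondary wall and the death of the vessel cell, and HD-ZIP III factors help to decide which kind of vessel forms.

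The Xyl libraries held an estimated 8.30 to 19.0 M reads and the NSC libraries 18.6 to 34.0 M, so 1 read in a transcript of 1500 bases stood for 0.0405 to 0.0926 FPKM in Xyl and 0.0226 to 0.0413 FPKM in NSC. Between 15157 and 16521 genes reached 1 FPKM in the Xyl samples and 17149 to 18083 in the NSC samples, and 1 to 24 genes per Xyl library were listed at 0 while they had at least 10 FPKM in the other 3. Correlations over genes ranged from 0.868 to 0.924 among Xyl samples, from 0.926 to 0.978 among NSC samples and from 0.315 to 0.603 between the groups. A gene was called where its adjusted p was below 0.06 and its change exceeded 2-fold, in limma's moderated test of log2(FPKM + 1) with Benjamini-Hochberg adjustment over all genes tested. In all, 5249 genes (28%) were called higher in Xyl and 6187 (33.0%) lower, together 60.9% of those tested, and the median log2 fold change over all genes was -0.16. Scaling the libraries by size factors shifted that median by a further -0.22 and gave 4562 higher and 6887 lower calls. Groups without overlap were common, with all 4 Xyl samples above all 4 NSC samples in 32.2% of genes and below them in 32.7%, so each count that follows is to be read against these shares. In sorted bulk samples, more cells of a type and more RNA per cell cannot be told apart.

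Genes of the TMO5 and LHW module were far higher in Xyl. TMO5, whose promoter chose the cells, had 851, 1004, 1129 and 1340.4 FPKM in the 4 Xyl samples, against 16.4, 12.2, 7.83 and 5.75 FPKM in the NSC samples, a check of the sort and no finding. T5L1, a close relative of TMO5, had 185, 164, 204 and 228 FPKM in Xyl, against 25.8, 24.3, 8.87 and 11.6 FPKM in NSC. LHW, the partner of TMO5, had 33.7, 40.4, 44.4 and 51.2 FPKM in Xyl, against 6.21, 6.72, 5.9 and 2.67 FPKM in NSC. The groups did not overlap for any of these genes, and the log2 fold change was 3.51 ± 0.33 (SE) for T5L1 (adjusted p = 2.28e-05) and 2.81 ± 0.28 for LHW (adjusted p = 2.80e-05). LOG3, which releases active cytokinin, had 141, 208, 219 and 219 FPKM in Xyl, against 3.87, 5.59, 4.4 and 2.27 FPKM in NSC. LOG4, an enzyme of the same kind, had 18.9, 32.8, 23.4 and 35.8 FPKM in Xyl, against 1.38, 3.84, 4.02 and 2.61 FPKM in NSC. AHP6 had 61.2, 80.7, 119 and 153 FPKM in Xyl, against 0.283, 0, 0 and 1.33 FPKM in NSC, where 2 samples were listed at 0. All 3 rose in Xyl with no overlap, by 5.32 ± 0.26 for LOG3 (adjusted p = 1.46e-06), 2.87 ± 0.32 for LOG4 (adjusted p = 5.13e-05) and 6.23 ± 0.37 for AHP6 (adjusted p = 3.30e-06) on the log2 scale. Of the 10 tested members of this module, 8 were called higher and none lower, and the 2 that were not called were LHL2, a relative of LHW, and SAC51, a bHLH gene under thermospermine control. The median log2 fold change over the 10 was 2.84, beside -0.16 over all genes. Without TMO5, whose call the sort had fixed, 7 of 9 were higher and the median was 2.81.

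**Figure D1:**
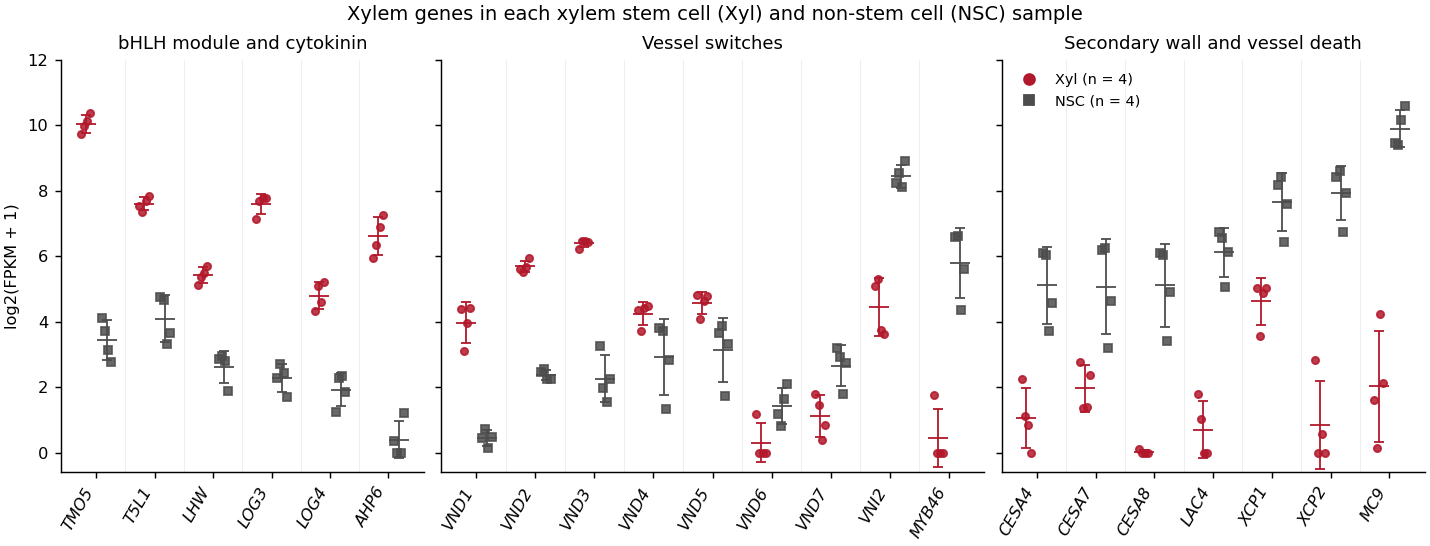
Levels of xylem genes as log2(FPKM + 1) in the 4 Xyl samples (red circles) and the 4 NSC samples (grey squares), with the mean and SD of each group. The bHLH module, cytokinin genes and VND1 to VND3 lie high in Xyl, while MYB46 and the genes of the secondary wall and of vessel death lie lower in Xyl than in NSC, XCP1 being the highest of them in Xyl.

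Cytokinin genes of synthesis and of signalling were also listed apart, LOG3, LOG4 and AHP6 among them. IPT1, an isopentenyltransferase that starts cytokinin synthesis, had 16.7, 15.6, 22.7 and 17.6 FPKM in Xyl, against 0.0856, 0.312, 0.0364 and 0.0567 FPKM in NSC, a log2 fold change of 4.08 ± 0.23 (adjusted p = 2.44e-06). IPT9, which acts on tRNA, rose by 2.78 and CKX6, a cytokinin oxidase, by 1.88, whereas LOG7 was lower in Xyl (log2 fold change -3.1). Among the 12 tested genes of cytokinin synthesis and turnover, 6 were higher and 5 lower, with a median of 0.87, and without LOG3 and LOG4 4 of 10 were higher and 5 lower, with a median of -0.42. Signalling genes were mostly lower. The receptor AHK3 had 5.58, 3.07, 3.71 and 1.29 FPKM in Xyl, against 28.5, 40.8, 23 and 32.7 FPKM in NSC (log2 fold change -2.94 ± 0.34, adjusted p = 6.51e-05). The phosphotransfer protein AHP1 differed by -2.84, the response regulators ARR3 and ARR5, which are induced by cytokinin and dampen the response, by -3.09 and -2.34, and ARR10, an activating response regulator, by -1.93. Of 20 tested signalling genes, 11 were lower and 2 were higher, the inhibitor AHP6 and the phosphotransfer gene AHP5, with a median of -1.44 (-1.48 without AHP6). The receptor WOL (AHK4) had 27.3 to 44.6 FPKM in Xyl and 17.7 to 26.9 FPKM in NSC and ARR12 had 52.5 to 68.9 FPKM in Xyl and 28.5 to 37.8 FPKM in NSC, without overlap but with changes under 2-fold (0.61 and 0.84 on the log2 scale), so neither was called.

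All 5 HD-ZIP III genes, transcription factors of vascular patterning, rose in Xyl. PHB had 56.7, 48.1, 69.96 and 73.6 FPKM in Xyl, against 6.06, 4.66, 2.61 and 2.0 FPKM in NSC. ATHB8 had 54.8, 65.4, 69.1 and 92.5 FPKM in Xyl, against 10.7, 7.95, 2.24 and 2.0 FPKM in NSC. Their log2 fold changes were 3.77 ± 0.30 and 3.63 ± 0.45 (adjusted p = 1.04e-05 and 0.000101), and those of ATHB15, REV and PHV were 2.36, 1.92 and 1.77. ZPR1, a small protein that binds and inhibits HD-ZIP III factors, had 8.1, 9.95, 5.29 and 11.1 FPKM in Xyl, against 25.7, 22.9, 32.5 and 15.2 FPKM in NSC, and was lower (-1.38 ± 0.30, adjusted p = 0.00246). SHR, made in the stele and moved outwards to the endodermis, had 119, 114, 124 and 155 FPKM in Xyl, against 3.49, 3.1, 1.41 and 0.219 FPKM in NSC, a log2 fold change of 5.56 ± 0.39 (adjusted p = 5.89e-06). Its partners in the endodermis and its initials went the other way. SCR had 0.417, 0.752, 0 and 0 FPKM in Xyl, against 8.45, 5.29, 6.76 and 4.52 FPKM in NSC (-2.5 ± 0.29), and the zinc finger genes JKD and MGP were lower, at -1.66 and -1.7 on the log2 scale. In that group of 7 tested genes, SHR alone was higher and 5 were lower, 4 in the fit of all 28 samples, where JKD was not called.

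Genes of the procambium and cambium, the dividing tissue between xylem and phloem, were more often lower in Xyl than higher. Of 14 tested, 2 were higher (CRF2 and PXY), 8 were lower and 4 were not called, with a median of -1.25. CRF2 (TMO3), like TMO5 a target of the auxin response factor MP, had 58.5, 53.7, 89.9 and 78.5 FPKM in Xyl, against 19.9, 11.4, 13.2 and 3.132 FPKM in NSC (2.65 ± 0.45, adjusted p = 0.000668). MP itself had 72, 95.5, 89.4 and 146 FPKM in Xyl, against 49.2, 67.4, 40.9 and 52.6 FPKM in NSC, and its log2 fold change of 0.9 ± 0.25 stayed under 2-fold, becoming a call without Xyl replicate 1 (1.04) or without NSC replicate 2 (1.03). The receptor gene PXY was low throughout, with 2.55, 2.21, 3.57 and 4.92 FPKM in Xyl, against 1.09, 1.96, 0.324 and 0.917 FPKM in NSC. Its log2 fold change of 1.07 ± 0.32 was called, but fell under 2-fold with size factors (0.91), without Xyl replicate 4 (0.91) and without NSC replicate 3 (0.88) and without Xyl replicates 3 and 4 (0.76). The DOF factor gene DOF6 and the peptide gene CLE41 were listed at 0 in all 4 Xyl samples.

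An auxin carrier gave one of the largest differences. LAX2, an auxin influx carrier of vascular tissue, had 209, 277, 308 and 285 FPKM in Xyl, against 2.07, 0.65, 0.999 and 0.402 FPKM in NSC, a log2 fold change of 7.11 ± 0.27 (adjusted p = 7.86e-07). LAX1 rose by 2.95, and these were the 2 genes called higher among 18 tested auxin transport genes, of which 6 were lower. Among the lower genes, PIN2, the efflux carrier of the epidermis and cortex, had 8.04, 21.6, 6.75 and 1.94 FPKM in Xyl, against 79.1, 80.7, 121 and 69.7 FPKM in NSC (-3.39 ± 0.53), and LAX3 differed by -3.22. AUX1, an influx carrier, had 160.0 to 219 FPKM in Xyl and 91 to 148 FPKM in NSC and was not called (0.66). The YUC enzymes, which make auxin, differed between members. YUC6 had 10.2, 6.64, 9.32 and 7.35 FPKM in Xyl, against 1.29, 0, 0.243 and 0.341 FPKM in NSC (2.73 ± 0.30, adjusted p = 5.16e-05), and was the only one of 8 tested synthesis genes called higher. YUC5 had 1.12, 3.04, 0 and 0 FPKM in Xyl, against 87.1, 47.2, 52.5 and 47.1 FPKM in NSC (-5.07 ± 0.46), and YUC8 and YUC9 were lower, at -4.14 and -3.73 among the 6 lower genes.

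Auxin response genes were split, with 15 of 53 tested higher and 12 lower, shares near those of all genes, and their median of 0.16 became -0.11 under size factors. IAA12 (BODENLOS), the repressor that acts on MP, had 34.8, 40.4, 46.6 and 48.4 FPKM in Xyl, against 6.6, 5.19, 3.3 and 1.33 FPKM in NSC. IAA26, a repressor of the same family, had 38.1, 41.5, 65.1 and 59.2 FPKM in Xyl, against 4.41, 4.43, 3.01 and 4.34 FPKM in NSC. GH3.5, which joins auxin to amino acids, had 275, 339, 345 and 323 FPKM in Xyl, against 26.1, 21.6, 30.8 and 16.7 FPKM in NSC. None of the 3 overlapped, and their log2 fold changes were 3.21 ± 0.36, 3.34 ± 0.24 and 3.73 ± 0.21 (adjusted p = 5.18e-05, 6.32e-06 and 2.73e-06). On the lower side, IAA17 had 44.1, 62.4, 49 and 12.1 FPKM in Xyl, against 490.3, 472, 512 and 592 FPKM in NSC (-3.8 ± 0.44). ARF16, a repressing response factor known from the root cap, had 1.23, 5.58, 0.577 and 0.521 FPKM in Xyl, against 57, 36.7, 61.8 and 29.3 FPKM in NSC (-4.21 ± 0.48).

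The 7 VND genes, NAC factors that turn on vessel formation, divided into members that were higher in Xyl and members that were higher in NSC. VND1 had 19.9, 7.58, 14.7 and 20.6 FPKM in Xyl, against 0.36, 0.657, 0.111 and 0.39 FPKM in NSC. VND2 had 48.2, 45.1, 50.3 and 60.3 FPKM in Xyl, against 4.46, 4.92, 3.71 and 3.79 FPKM in NSC. VND3 had 73.6, 87.9, 87.1 and 84.9 FPKM in Xyl, against 8.62, 2.96, 1.94 and 3.7 FPKM in NSC. These 3 rose without overlap, by 3.52 ± 0.33, 3.31 ± 0.19 and 4.13 ± 0.34 (adjusted p = 2.17e-05, 2.77e-06 and 1.09e-05). VND4 had 19.3, 12.3, 20.6 and 21.3 FPKM in Xyl, against 13, 12.1, 1.49 and 6.06 FPKM in NSC, and the groups overlapped. VND5 had 27.4, 16.1, 23.6 and 26.5 FPKM in Xyl, against 11.5, 13.6, 2.28 and 8.94 FPKM in NSC. Both were called higher (1.33 and 1.45), but NSC replicate 3 was the lowest for both, and without it neither was called (0.80 and 0.97), which left 3 higher genes in the group. VND5 was also not called without Xyl replicates 3 and 4 (1.33). The call of VND4 was also lost without Xyl replicate 1 (1.30), 3 (1.27) or 4 (1.25), without NSC replicate 4 (1.30), with size factors (1.09), with a pseudocount of 0.1 (1.52), with either other filter on low values, and without Xyl replicates 1 and 2 (1.54) or 3 and 4 (1.12). VND6, the switch for metaxylem vessels, had 1.28, 0, 0 and 0 FPKM in Xyl, against 1.25, 0.76, 2.12 and 3.27 FPKM in NSC, low in both groups. Its log2 fold change of -1.13 ± 0.37 was called lower, and was not called without NSC replicate 4 (-0.91) or without Xyl replicates 3 and 4 (-0.84). VND7, the switch for protoxylem vessels, had 2.49, 1.74, 0.307 and 0.777 FPKM in Xyl, against 8.17, 6.65, 2.43 and 5.63 FPKM in NSC, and was lower (-1.54 ± 0.41) although Xyl replicate 1 lay within the NSC range, and was not called without Xyl replicates 3 and 4 (-1.03).

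Among the other vessel switches and the genes of the secondary wall and vessel death, most levels in Xyl were far below those in NSC. VNI2, a NAC protein that represses VND7 targets, had 33.3, 38.8, 12.4 and 11.4 FPKM in Xyl, against 300.1, 371, 275 and 478 FPKM in NSC (-4.0 ± 0.41). MYB46, which commands secondary wall genes, had 2.38, 0, 0 and 0 FPKM in Xyl, against 96.2, 96.6, 19.5 and 48.2 FPKM in NSC (-5.36 ± 0.59, adjusted p = 4.89e-05). Among the 15 tested vessel switches, the 5 higher genes were VND1 to VND5 and 9 were lower. Of 22 tested genes of the secondary wall and of vessel death, 21 were lower in Xyl and none was higher, with a median of -4.62, and IRX14, a xylan synthase gene, was the one not called (-0.25). CESA7, a subunit of the secondary wall cellulose synthase, had 5.77, 1.54, 1.61 and 4.17 FPKM in Xyl, against 72.9, 75.8, 8.16 and 23.8 FPKM in NSC. CESA8, of the same complex, had 0.0789, 0, 0 and 0 FPKM in Xyl, against 67.9, 64.9, 9.53 and 29.2 FPKM in NSC. LAC4, a laccase that polymerizes lignin, had 2.45, 1.04, 0 and 0 FPKM in Xyl, against 106, 93.2, 32.7 and 68.5 FPKM in NSC. All 3 were lower, at -3.109 ± 0.68, -5.09 ± 0.55 and -5.42 ± 0.49 on the log2 scale (adjusted p = 0.00271, 4.43e-05 and 1.85e-05), and CESA4 by -4.05. NSC replicates 1 and 2 were the highest for the CESA genes. The metacaspase gene MC9, which clears the dying vessel, had 2.07, 0.10, 17.9 and 3.36 FPKM in Xyl, against 708, 670.4, 1159.6 and 1539.7 FPKM in NSC (-7.88 ± 0.74, adjusted p = 2.06e-05). The nuclease genes RNS3 and BFN1 were lower, at -6.9 and -6.42, and both had their highest values in NSC replicates 3 and 4. These levels were measured in cells labelled meristematic.

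The peptidase genes XCP1 and XCP2, which digest the contents of the dying vessel, differed in how far they were lower. XCP2 had 6.14, 0, 0.487 and 0 FPKM in Xyl, against 345, 386, 107 and 245 FPKM in NSC, a log2 fold change of -7.08 ± 0.66 (adjusted p = 2.02e-05). XCP1 had 31.4, 10.7, 28.2 and 32 FPKM in Xyl, against 291, 343, 85.8 and 194 FPKM in NSC, a log2 fold change of -3.05 ± 0.48 (adjusted p = 0.000415). XCP1 therefore stayed above 10 FPKM in each Xyl sample, while XCP2 was listed at 0 in 2 of them. The promoter of XCP1 is shown because it holds the TERE motif (CTT, any base, AAAGC, any base and A), a sequence of vessel genes described as a target of VND factors. The window is the 300 bases before the annotated gene start, chr4:16810182-16810481 on the plus strand (TAIR10.1, RefSeq), with the match in capitals.
XCP1: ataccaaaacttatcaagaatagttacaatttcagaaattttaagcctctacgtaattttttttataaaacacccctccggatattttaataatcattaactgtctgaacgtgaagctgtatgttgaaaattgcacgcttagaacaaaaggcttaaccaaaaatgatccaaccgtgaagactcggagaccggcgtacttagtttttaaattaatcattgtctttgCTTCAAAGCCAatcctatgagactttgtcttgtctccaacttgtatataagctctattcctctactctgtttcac
On either strand, this motif occurred in the windows of 3 of the 22 secondary wall and vessel death genes (13.6%: CESA4, XCP1 and MC9), beside 0.465% of the windows of 18053 tested protein-coding genes. A match is a description of the letters and not evidence of binding.

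Genes for thermospermine, a polyamine that restrains vessel differentiation, went both ways. ACL5, the thermospermine synthase, had 102, 81.9, 45.5 and 113 FPKM in Xyl, against 1.25, 4.46, 0.582 and 0.938 FPKM in NSC, a log2 fold change of 5.05 ± 0.43 (adjusted p = 1.30e-05). BUD2, a decarboxylase of the same route, had 7.23, 2.0, 0.127 and 10.5 FPKM in Xyl, against 0.483, 0, 0.428 and 0 FPKM in NSC. It was called higher (1.81 ± 0.65) although Xyl replicate 3 lay within the NSC range, and lost the call without Xyl replicate 1 (1.49) or 4 (1.33) and without NSC replicate 2 or 4 (1.72 each), without Xyl replicates 1 and 2 (1.58) and without a filter on low values. SPDS1, a spermidine synthase, had 2.68, 5.94, 0.783 and 0.0619 FPKM in Xyl, against 81.4, 84.4, 42.1 and 47 FPKM in NSC, and was lower (-4.55 ± 0.55), as was SAMDC1 (-2.05).

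Mitotic genes formed the group with the highest median of the lists, 3.65 over 34 tested genes, and all 34 were called higher in Xyl. CYCB1;4, a cyclin of the G2 to M transition, had 272, 356, 239 and 237 FPKM in Xyl, against 2.36, 3.35, 1.31 and 2.57 FPKM in NSC. CYCB1;2 had 284, 395, 322 and 311 FPKM in Xyl, against 6.12, 6.92, 7.27 and 9.06 FPKM in NSC. CYCB1;1, often used as a reporter of mitotic cells, had 77.2, 109, 122 and 81.3 FPKM in Xyl, against 1.23, 3.2, 3.76 and 1.16 FPKM in NSC. The groups lay far apart for each, at log2 fold changes of 6.36 ± 0.24, 5.3 ± 0.19 and 4.95 ± 0.32 (adjusted p = 7.86e-07, 7.86e-07 and 4.27e-06). The kinase genes CDKB2;2 and AUR1 rose by 5.09 and 3.134, and KNOLLE, the syntaxin of the cell plate, had 47.3, 56, 49.5 and 44.8 FPKM in Xyl, against 6.58, 5.9, 5.49 and 7.39 FPKM in NSC (2.78 ± 0.18). Genes of S phase followed with 20 of 23 tested higher, none lower and a median of 2.15. MCM6, a subunit of the replicative helicase, had 20.8, 18.6, 8.51 and 16 FPKM in Xyl, against 4.4, 2.89, 1.89 and 0.949 FPKM in NSC (2.3 ± 0.38, adjusted p = 0.000577). ORC1B, of the origin recognition complex, rose by 3.0 and PCNA1, the sliding clamp of the polymerase, by 3.33. ORC1A (0.63), CDT1A (0.41) and RNR2A were the 3 that were not called.

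The promoters of CYCB1;2 and MCM6 are shown for the motifs that mitotic and S phase genes are known for. AACGG is the core of the element bound by MYB3R factors in mitotic genes, and TTTCCCGC and TTTGGCGC are forms of the E2F site of S phase genes. Each window is the 300 bases before the annotated gene start, at chr5:1861704-1862003 and chr5:18010668-18010967, both on the minus strand (TAIR10.1, RefSeq). Capitals mark AACGG in CYCB1;2 and TTTCCCGC in MCM6, read on either strand.
CYCB1;2: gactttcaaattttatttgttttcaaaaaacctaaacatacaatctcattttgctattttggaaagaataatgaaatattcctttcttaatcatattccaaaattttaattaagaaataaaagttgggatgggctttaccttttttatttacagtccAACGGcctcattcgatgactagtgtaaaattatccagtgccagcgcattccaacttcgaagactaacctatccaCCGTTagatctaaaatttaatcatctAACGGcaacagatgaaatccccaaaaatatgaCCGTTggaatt
MCM6: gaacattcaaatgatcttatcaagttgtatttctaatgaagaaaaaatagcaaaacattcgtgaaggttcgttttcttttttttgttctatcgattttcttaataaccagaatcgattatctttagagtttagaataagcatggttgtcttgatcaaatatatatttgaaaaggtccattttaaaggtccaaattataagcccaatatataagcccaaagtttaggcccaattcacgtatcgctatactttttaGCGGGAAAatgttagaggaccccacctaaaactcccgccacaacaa
The CYCB1;2 window holds 4 matches to AACGG and the MCM6 window 1 match to TTTCCCGC. AACGG occurred in 22 of the 34 mitotic windows (64.7%) and at least 2 times in 12 (35.3%), beside 25% and 5.14% of all 18053 windows, and in 5 of the 23 S phase windows (21.7%). It was not confined to mitotic genes, with 7 of 15 windows of vessel switches (46.7%) and 17 of 45 of cell cycle control (37.8%). In secondary wall and vessel death genes it occurred in 1 of 22 (4.55%). An E2F site of either form occurred in 8 of the 23 S phase windows (34.8%), in 0 of the 34 mitotic windows and in 1.13% of all windows. No searched motif contains another, and here too a match is not evidence of binding.

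Genes of cell cycle control moved less evenly, with 18 of 45 tested higher and 9 lower. CYCD5;1, a D-type cyclin, had 52.8, 60.5, 80.1 and 90.4 FPKM in Xyl, against 8.21, 6.18, 3.25 and 5.51 FPKM in NSC (3.43 ± 0.28, adjusted p = 1.16e-05). CCS52B, an activator of the anaphase-promoting complex in mitosis, had 111, 128, 143 and 137 FPKM in Xyl, against 6.54, 9.08, 5.5 and 6.66 FPKM in NSC (4.05 ± 0.20). TCX2, a DNA-binding protein related to the plant DREAM complexes, had 43.9, 31.2, 43.7 and 42.4 FPKM in Xyl, against 1.43, 2.58, 2.6 and 1.75 FPKM in NSC (3.75 ± 0.23). E2FA, DEL1, MYB3R4 and SCL28, all transcription factors of the cycle, rose by 2.14, 3.04, 2.3 and 2.67. Some inhibitors were among the lower genes, though inhibitors as a class were not counted apart. KRP1, an inhibitor of cyclin-dependent kinases, had 0.161, 0.493, 0 and 1.31 FPKM in Xyl, against 2.82, 6.3, 8.93 and 10.1 FPKM in NSC (-2.4 ± 0.40). KRP2 and SIM, of the inhibitor families, were lower, at -2.07 and -1.85, and so was CYCD3;1 (-2.67). RBR1, the retinoblastoma homologue, had 16.1 to 23 FPKM in Xyl and 11 to 17.5 FPKM in NSC and was not called (0.56).

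**Figure D2:**
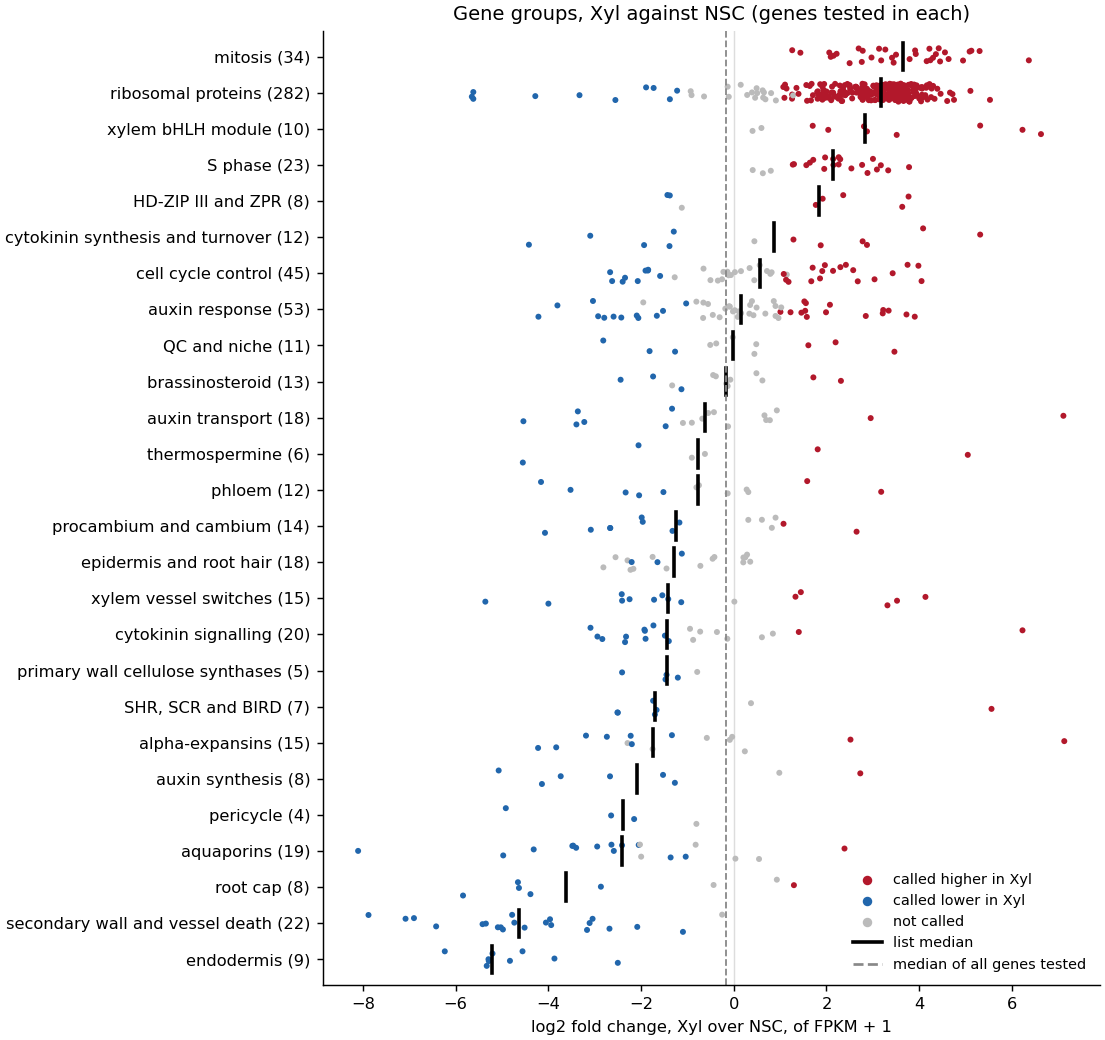
Log2 fold change of FPKM + 1, Xyl over NSC, for each tested gene of the named groups (number tested in parentheses), with the group median as a black bar and the median of all genes tested as a dashed line. Mitosis, ribosomal proteins, the bHLH module and S phase have medians above 2, and secondary wall and endodermis genes have medians below -4.

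Ribosomal protein genes made up a different share of the summed FPKM in the 2 groups, which is scaled by transcript length and is not a share of reads. They took 25.4%, 25.6%, 29.1% and 31.2% of the summed FPKM in the 4 Xyl samples, against 3.81%, 3.6%, 3.07% and 1.65% in the NSC samples. Of the 282 tested by annotation, 254 were higher in Xyl, 10 lower and 18 not called, with a median of 3.18. EMB2296, a protein of the large subunit, had 4875, 7178, 6521 and 5915 FPKM in Xyl, against 422, 371, 292 and 151 FPKM in NSC (4.39 ± 0.35, adjusted p = 9.90e-06). AT5G60390, an elongation factor of translation, was the gene with the highest mean in Xyl among those called higher, at 8584, 8797, 10455 and 10509.7 FPKM, against 1246, 1140.3, 717 and 502 FPKM in NSC (3.49 ± 0.35). FIB2, a fibrillarin that modifies ribosomal RNA in the nucleolus, had 774, 837, 1009 and 1487 FPKM in Xyl, against 12.1, 15.6, 28.6 and 5.35 FPKM in NSC (6.13 ± 0.43, adjusted p = 5.89e-06). Ribosomal proteins and elongation factors come as near-identical gene copies, so the values of single copies are uncertain. Their sum is less so if reads with several matches were treated alike in all libraries, which was not tested. FPKM are shares of a library, and the part of this share in the changes of other genes was not tested beyond the size factors given above.

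**Figure D3:**
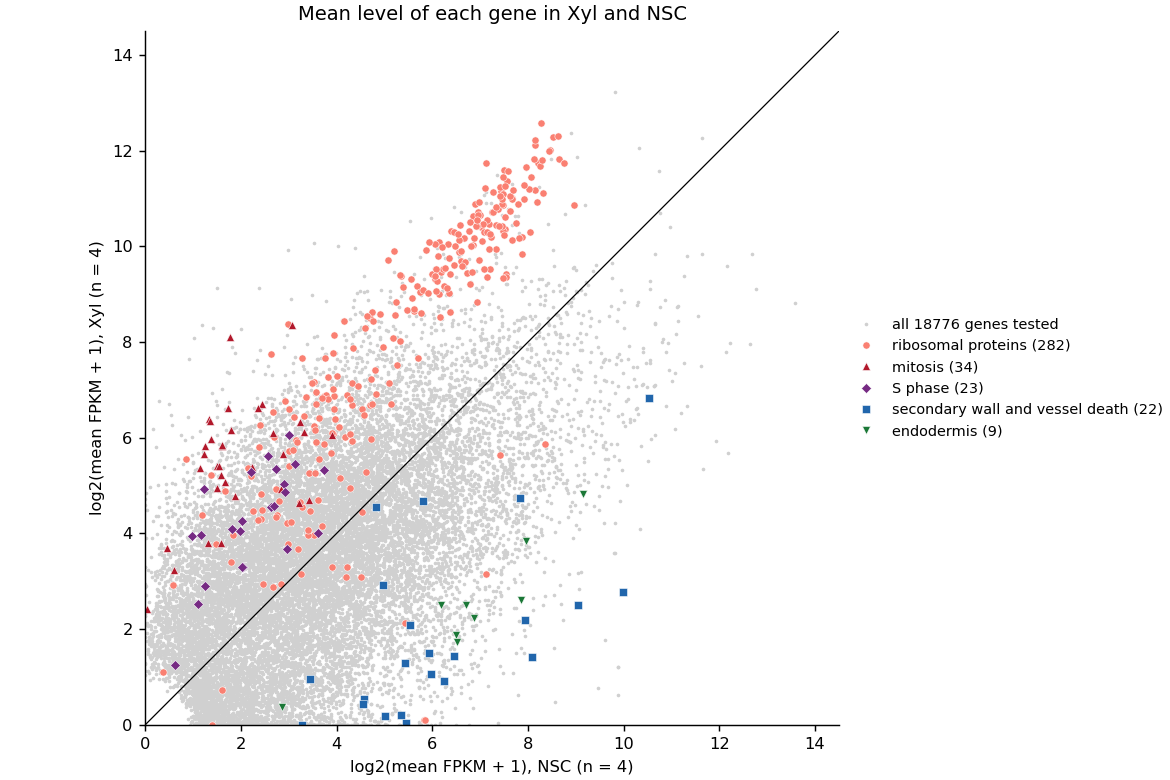
Mean level of each of the 18776 genes tested as log2(mean FPKM + 1), with Xyl (n = 4) on the vertical axis and NSC (n = 4) on the horizontal axis, and the line of equal levels. Ribosomal protein genes form a band above the line up to the highest levels, mitotic and S phase genes lie above it at lower levels, and secondary wall and endodermis genes lie below it.

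Aquaporin genes were mostly lower, and alpha-expansins, which loosen the wall, went both ways. EXPA15, an alpha-expansin, had 658, 912, 1154 and 1147 FPKM in Xyl, against 11.8, 10.5, 2.8 and 2.72 FPKM in NSC, a log2 fold change of 7.13 ± 0.45 (adjusted p = 3.85e-06). EXPA3 rose by 2.52, and these were the 2 higher of 15 tested alpha-expansins, of which 7 were lower, with a median of -1.75 that was -0.38 without Xyl replicates 3 and 4 (3 higher and 6 lower). EXPA9 had 13.3, 63.1, 107 and 31.6 FPKM in Xyl, against 795, 779, 804 and 776 FPKM in NSC (-4.22 ± 0.53). Of 19 tested aquaporins, 13 were lower and PIP2;8 alone was higher, with 3.39, 8.51, 3.6 and 15.7 FPKM in Xyl, against 0.98, 0.447, 0 and 0.487 FPKM in NSC (2.39 ± 0.45). PIP2;2 had 5.1, 2.51, 2.01 and 0.00016 FPKM in Xyl, against 823, 876, 598 and 849 FPKM in NSC (-8.1 ± 0.47), with the reservation that PIP2;3 is nearly identical in sequence. PIP2;1 had 513, 188, 122 and 60.2 FPKM in Xyl, against 1974, 2285, 1166 and 2156 FPKM in NSC (-3.48 ± 0.57). Of the 5 tested primary wall cellulose synthases, 4 were lower, CESA1 among them (-1.47). TIP2;2, a vacuolar channel, was high in Xyl replicates 1 and 2 and low in replicates 3 and 4, with 607, 501, 27.7 and 27.4 FPKM in Xyl, against 331, 394, 501 and 961 FPKM in NSC. It was not called (-2.0 ± 1.04), but was called lower without Xyl replicate 1 (-2.76) or 2 (-2.66).

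Other genes with very large differences had less known ties to xylem. AT2G28790, of the thaumatin family, had 421, 574, 551 and 704 FPKM in Xyl, against 0.806, 0.669, 5.36 and 0.437 FPKM in NSC (7.92 ± 0.44, adjusted p = 2.44e-06), the largest log2 fold change of all called genes without overlap. ENODL14, an early nodulin-like protein, had 331, 249, 403 and 326 FPKM in Xyl, against 1.85, 1.46, 0.255 and 1.52 FPKM in NSC (7.22 ± 0.29). NAKR2, a metal-binding protein by annotation, had 48.6, 76, 76.3 and 85.9 FPKM in Xyl, against 0, 0, 0.293 and 0.15 FPKM in NSC (6.01 ± 0.25). AT3G53190, of the pectin lyase family, and AT3G03130, a lisH domain protein, rose by 6.78 and 6.82. On the lower side, UPI, a serine protease inhibitor, had 0, 0.169, 0.572 and 1.45 FPKM in Xyl, against 623, 584, 1309.6 and 1249.9 FPKM in NSC (-9.24 ± 0.37, adjusted p = 9.53e-07), the most negative of the genes named. AT2G25450, an oxygenase known for modifying glucosinolates, the mustard oil precursors, had 0.898, 0, 0.0886 and 0.56 FPKM in Xyl, against 359.8, 492, 264 and 393 FPKM in NSC (-8.11 ± 0.28). BGLU34, a root myrosinase that cleaves glucosinolates, had 20.04, 0.409, 166 and 14.6 FPKM in Xyl, against 3103, 2619, 5743 and 7129 FPKM in NSC (-8.0 ± 1.18), and its near-identical copy BGLU35 gave -7.34 ± 1.17. The myrosinase-binding MLP-300B was lower, at -7.12. AT1G52070, a lectin and the gene with the highest mean in NSC among those called lower, had 30.03, 744, 182 and 854 FPKM in Xyl, against 9824, 9205, 14852 and 15015 FPKM in NSC (-5.6 ± 0.93), with a near copy in AT1G52060. AGP2 and GSTU19 were lower, at -3.32 and -2.82, and the cold-responsive KIN2, at -6.98.

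Markers of other root cell types were checked in both groups. Summed over 7 markers, xylem reached 1313 to 2002 FPKM in Xyl and 24.6 to 68.6 FPKM in NSC (441 to 661 FPKM in Xyl and 16.7 to 52.2 FPKM in NSC without TMO5, which chose the cells), and VND7 was the one marker called lower. Endodermis markers summed to 3.03 to 89.9 FPKM in Xyl and 521 to 865 FPKM in NSC, root cap markers to 3.86 to 64.3 FPKM in Xyl and 302 to 582 FPKM in NSC, and pericycle markers to 0 to 6.06 FPKM in Xyl and 52.6 to 71.6 FPKM in NSC. The quiescent center markers WOX5 and AGL42 summed to 0 to 0.363 FPKM in Xyl and 2.33 to 9.55 FPKM in NSC, and WOX5 was listed at 0 in 3 Xyl samples. The sums for phloem, epidermis and cortex markers overlapped between the groups. Phloem had 15.4 to 30.2 FPKM in Xyl and 9.68 to 23.7 FPKM in NSC. Epidermis had 12.9 to 230 FPKM in Xyl and 69.6 to 109 FPKM in NSC, and cortex 0 to 2.45 and 0.467 to 2.46 FPKM. CASP1, which builds the Casparian strip of differentiated endodermis, had 20.9, 81.1, 1.91 and 6.1 FPKM in Xyl, against 444, 468, 586 and 788 FPKM in NSC (-5.33 ± 0.86, adjusted p = 0.000483), and all 9 tested endodermis genes were lower, among them CASP2 (-6.23) and MYB36 (-3.87). The label of the NSC cells as meristematic thus goes with high levels of genes of differentiated endodermis and vessels. The root cap factors SMB and BRN1 differed by -2.87 and -4.65 and SKP2B of the pericycle by -4.92. Phloem genes were mixed, with 2 of 12 tested higher and 5 lower. CVP2, a phosphatase gene of the protophloem, had 10.5, 16, 23.2 and 26.5 FPKM in Xyl, against 1.08, 1.03, 0.86 and 1.43 FPKM in NSC (3.18 ± 0.31), whereas the sucrose carrier SUC2 of companion cells had 1.23, 3.93, 0 and 0 FPKM in Xyl, against 61.1, 65.6, 9.32 and 25.1 FPKM in NSC (-4.16 ± 0.70), and APL was lower, at -2.04. Among the 11 genes of the quiescent center and niche, BBM, a PLETHORA factor, rose by 3.47 ± 0.40 and PLT1 by 2.2 ± 0.30, and WOX5 and AGL42 were lower (-1.82 and -1.27). AGL42 is the gene of the reporter that the NSC cells were sorted as negative for, and its transcript was still lower in Xyl than in NSC.

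Root hair genes separated the Xyl samples from each other. PRP3, a wall protein of root hairs, had 144, 575, 0.183 and 0.851 FPKM in Xyl, against 114, 78.4, 189 and 256 FPKM in NSC. EXPA18, a root hair expansin, had 168, 328, 0.52 and 0.751 FPKM in Xyl, against 87.1, 62.6, 96.9 and 154 FPKM in NSC. EXPA7 had 59.3, 162, 3.07 and 0 FPKM in Xyl, against 49.4, 33.6, 36 and 78.6 FPKM in NSC. LRX1, MRH6 and ADF8 had the same pattern, high in Xyl replicates 1 and 2 at levels within or above the NSC range and at or near 0 in replicates 3 and 4. PRP3 and EXPA18 were not called (-2.81 ± 1.83 and -2.29 ± 1.69) and were called lower without Xyl replicate 2 (-4.41 and -3.65). Of 18 tested epidermis and root hair genes 3 were lower and none higher, and without Xyl replicate 2, or without replicates 1 and 2, the count of lower genes was 10. Without Xyl replicate 4, 2 were higher and 2 lower, and without replicates 3 and 4, 3 were higher and 2 lower. Without replicates 1 and 2, 5236 genes in all were called higher and 6844 lower, and without replicates 3 and 4, 5185 higher and 5328 lower. The counts for the bHLH module, mitosis, S phase, the secondary wall and the endodermis moved by less than 1.5 times under either choice. The part of the root hair signal in other results was not tested beyond these values.

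**Figure D4:**
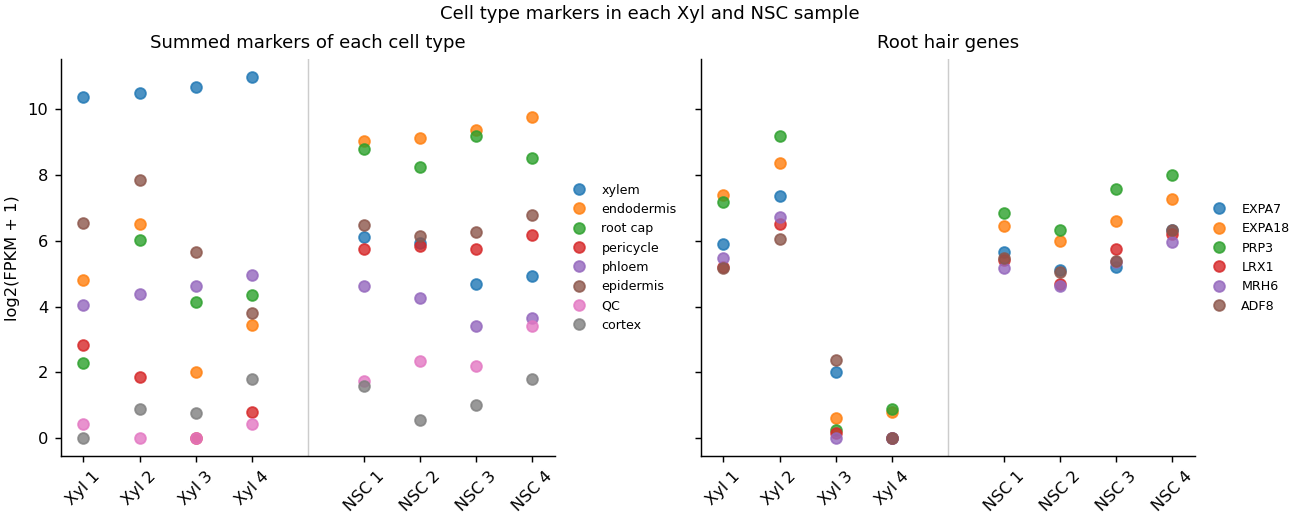
Summed FPKM of the markers of each cell type (left) and FPKM of 6 root hair genes (right) as log2(FPKM + 1) in each of the 4 Xyl and 4 NSC samples. Xylem markers are high in every Xyl sample, endodermis and root cap markers are high in every NSC sample, and root hair genes are high in Xyl 1, Xyl 2 and the NSC samples but at or near 0 in Xyl 3 and Xyl 4.

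The Xyl samples were then set against the mean of the 5 other stem cell types, in a fit of all 28 samples. The same Xyl samples enter both comparisons. In this comparison 2855 genes (15.2%) were higher in Xyl and 2554 (13.6%) lower, and 609 (3.24%) were higher with all 4 Xyl samples above the other 24. These counts depended on the samples: the lower genes numbered 1627 without Xyl replicate 4, the higher genes 1710 without Xyl replicates 1 and 2, and 538 higher and 708 lower genes were left without replicates 3 and 4. The types did not contribute alike. Type by type, 5669 genes were higher in Xyl than in Protophlo, 1734 than in QC, 958 than in CEI, 908 than in Epi/LRC and 803 than in CSC. The lower genes numbered 4032 for Protophlo, 2373 for QC, 1921 for CSC, 1688 for CEI and 1318 for Epi/LRC. Called against each of the 5 types in turn, 177 genes were higher in Xyl than in every one and 305 lower. The group counts that follow are against the mean of the 5 types and were not split by type. Both comparisons called 2649 genes higher (14.1%) and 2144 lower (11.4%).

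The xylem regulators differed from the other stem cell types as well. TMO5, again a check of the sort, was higher by 8.45 ± 0.75 on the log2 scale. T5L1 was higher by 6.53 ± 0.57 (adjusted p = 6.34e-09), LOG3 by 6.44 ± 0.56 (adjusted p = 5.65e-09), VND3 by 6.22 ± 0.29 (adjusted p = 4.13e-14) and AHP6 by 5.93 ± 0.53 (adjusted p = 8.71e-09). The highest of the 24 other samples reached 25.8 FPKM for T5L1 and 8.62 for VND3, both in NSC replicate 1. For LOG3 and AHP6 it reached 29.2 and 24.1 FPKM, both in CSC replicate 2. Each lay below the lowest Xyl sample. CSC replicates 1 and 3 had 0 and 0.457 FPKM of LOG3 and 0 and 0.193 FPKM of AHP6. TMO5 also had its highest value outside Xyl in CSC replicate 2 (82.0 FPKM). WAT1, an auxin transporter of the vacuole needed for secondary walls of fibres, had 469, 455, 599.6 and 581 FPKM in Xyl. Its highest value in any other sample was 161 FPKM, again in CSC replicate 2, and it was higher by 6.27 ± 0.69 (adjusted p = 2.73e-07). AT3G24516 and AT5G02640, without a described function in the annotation, were higher by 7.68 ± 0.48 and 6.49 ± 0.64. AT5G45095, also undescribed, had 72.4, 54.7, 44.8 and 48.4 FPKM in Xyl, against at most 0.635 FPKM elsewhere (5.72 ± 0.20, adjusted p = 1.35e-16), and AT5G50090 was higher by 5.74 ± 0.46. With TMO5 these are the 10 genes with the largest differences among those whose Xyl samples lay above all others.

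**Figure D5:**
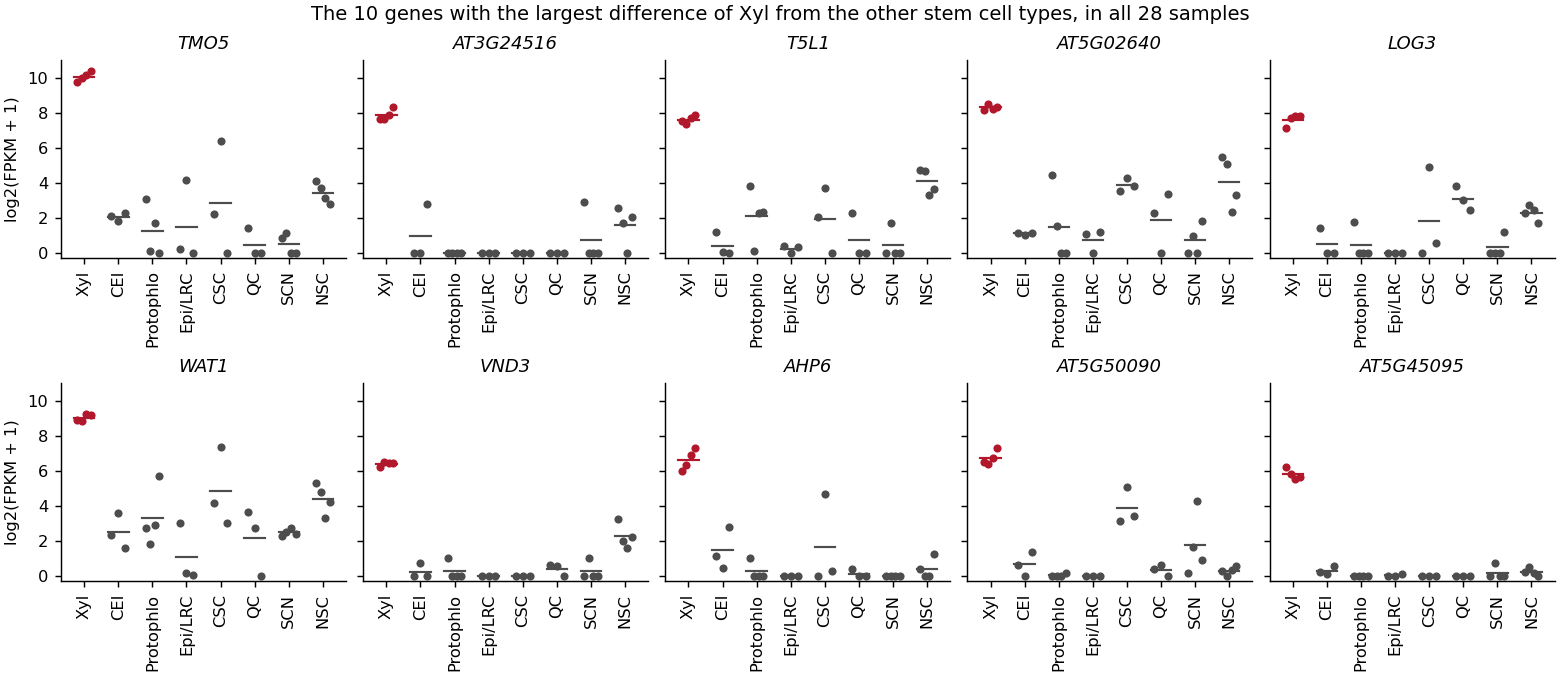
Levels as log2(FPKM + 1) of the 10 genes with the largest difference of Xyl from the 5 other stem cell types, among those whose 4 Xyl samples (red) lie above the other 24 (grey), with a bar at the mean of each population. TMO5, T5L1, AT5G02640, LOG3, WAT1 and VND3 are above 0 in every NSC sample, and AT5G45095 is below 1 FPKM in all samples other than Xyl.

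LHW did not follow its partner, with a difference of 0.59 ± 0.43 that was not called and a mean of 42.4 ± 7.36 FPKM in Xyl (SD, n = 4) against 112 FPKM in CSC, the population with the highest mean. VND1, VND2, VND4 and VND5 were higher than in the other types by 3.72, 5.36, 3.66 and 4.37. Of the HD-ZIP III genes PHB (3.43), ATHB15 (3.21) and ATHB8 (3.166) were higher, as were SHR (4.71), IPT1 (3.78), LAX2 (4.23), LAX1 (3.26), ACL5 (4.5) and EXPA15 (4.41). Without Xyl replicates 3 and 4 the call of ATHB8 was lost (2.96), and 2 rather than 5 of the HD-ZIP III and ZPR genes were higher. Mitotic genes were higher here too, 29 of 34, but the count was 15 without Xyl replicates 1 and 2 and 3 without replicates 3 and 4. Their median difference was 2.24, and it was 2.42 and 2.02 under these 2 choices, so calls were lost more than size. CYCB1;4 (4.95 ± 0.87, adjusted p = 0.000156) and CYCB1;2 (3.53 ± 1.00, adjusted p = 0.00953) lay above all other samples in each Xyl sample, but the call of CYCB1;2 was lost without Xyl replicates 1 and 2 (3.49) or 3 and 4 (3.57). Of the S phase genes, 3 of 23 were higher, CDT1B (2.52), ORC1B and ORC3, and the other 20 were not called. The count was 2 without Xyl replicates 1 and 2 and 0 without replicates 3 and 4, where CDT1B gave 2.43. Ribosomal proteins were higher in 209 of 282 cases and lower in 4, and 15 were higher without Xyl replicates 3 and 4. The groups far below NSC were seldom called here. Of 22 secondary wall and vessel death genes, 1 was higher and 1 lower (median -0.25). Of 9 endodermis genes, 1 was lower and 0 higher (median -0.36). The endodermis median was -1.46 without Xyl replicates 1 and 2 and 0.73 without replicates 3 and 4.

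The comparisons with NSC and with the other stem cell types gave opposite calls for few genes. XCP1, lower than in NSC, was higher in Xyl than in the 5 other types by 2.88 ± 0.76 (adjusted p = 0.00565), and was the only member of the 22 secondary wall and vessel death genes that was. This call of XCP1 was lost without Xyl replicates 3 and 4 (2.54), which left 0 of the 22 higher. It was 1 of 11 genes (0.0586%) with this pair of calls. ESK1, which acetylates xylan and was chosen after its values were seen, was another. It had 9.72, 9.38, 2.15 and 4.03 FPKM in Xyl, against 35, 22.1, 7.33 and 17.1 FPKM in NSC (-1.54 ± 0.53), and was higher than in the other types by 1.49 ± 0.42, a call lost without Xyl replicates 1 and 2 (0.78). Its call against NSC was lost without Xyl replicate 3 (-1.19), NSC replicate 1 (-1.23) or NSC replicate 2 (-1.44), and without Xyl replicates 3 and 4 (-0.83). The reverse pair of calls, higher than NSC and lower than the other types, was held by 5 genes (0.0266%): PLT1, RGF8, AT2G07783, AT5G50740 and ATMG00080, the last 4 named after their values were seen. PLT1, a PLETHORA factor of the stem cell niche, had 9.76, 17.6, 6.87 and 9.38 FPKM in Xyl, against 1.56, 1.19, 1.93 and 1.25 FPKM in NSC, and was lower than in the other types, at -1.76 ± 0.47 (adjusted p = 0.00656). RGF8, a peptide gene of the root meristem growth factor family, had 20.8, 26.1, 27 and 29.1 FPKM in Xyl, against 0.801, 1.46, 0.838 and 0.163 FPKM in NSC (3.92 ± 0.28), and was lower than in the other types, at -1.34 ± 0.42. Against the other types, the call of RGF8 was lost with a pseudocount of 0.1 (-1.14), without Xyl replicates 1 and 2 (-1.21) and without replicates 3 and 4 (-1.47), and that of PLT1 without replicates 3 and 4 (-1.44).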

How the data were processed

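Per the labels and the study's methods, RNA from sorted protoplasts was amplified with a low-input kit and sequenced as single-end reads, and replicates were biological. The deposited values are FPKM per gene, made by the authors with TopHat2 2.0.13 and Cufflinks 2.1.1 on TAIR10 per the submitters' processing notes. Without counts, values were tested as log2(FPKM + 1) with limma 3.58.1 in R 4.3.3 (trend, Benjamini-Hochberg, adjusted p below 0.06 and over 2-fold, the study's thresholds), so fold changes of low genes are understated. Genes needed at least 1 FPKM in at least 3 of the 8 samples. Read depth was estimated from the steps that single reads leave in low FPKM values. The fit was run on simulated data with far fewer changed genes than were called here, as a check of the code only. Names and promoters came from RefSeq TAIR10.1, where 32489 of 33201 identifiers had a locus. No column of values went unused.

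Members and lists were chosen with earlier results of these data known, and 1 gene of the procambium and auxin transport lists is not reported here and is left out of their counts. Genes were named from those lists, from the 15 called genes with the largest and the 15 with the smallest log2 fold change without overlap, from the 10 called in each direction with the highest mean without overlap, and from the 10 with the largest difference from the 5 other types with all Xyl samples above the other 24. Alternatives were a pseudocount of 0.1, TPM, size factors, other filters, no trend, a replicate block, a fit of all 28 samples, ratios of means, an adjusted p threshold of 0.05 and leaving out libraries. Leaving out Xyl replicates 1 and 2, or 3 and 4, was added after seeing the data. Figures were drawn with matplotlib 3.10.9.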

Additional observations from a re-analysis of the deposited data

Results flagged for a closer look

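In 19 of 294 groups of 4 samples looked at (147 genes named in the text, in Xyl and in NSC), 1 sample stood apart from the other 3 by Dixon's test on the log2 scale, where chance gives about 1 in 20. In Xyl replicate 1, LOG3 (140.5 FPKM) was lower than in the other Xyl samples, and ARR5 (1.85), MGP (0.572), VND6 (1.28), MYB46 (2.38), CESA8 (0.0789) and WOX5 (0.220 FPKM) were higher. Of these 6, MGP, VND6, MYB46, CESA8 and WOX5 were listed at 0 in the other 3 Xyl samples, so that any value above 0 stands apart and the chance rate does not hold for these 5 groups, which leaves 14. In Xyl replicate 2, XCP1 (10.7 FPKM), PCNA1 (52.8 FPKM) and TCX2 (31.2 FPKM) were lower than in the other Xyl samples, and in Xyl replicate 3 SCL28 (14.9 FPKM) was higher. Among the NSC samples, LHW (2.67 FPKM) and CDKB2;2 (0.230 FPKM) were lowest and E2FA (3.71 FPKM) highest in replicate 4, IAA26 (3.01), AUR1 (4.42) and PIP2;2 (598 FPKM) lowest and AT2G28790 (5.36 FPKM) highest in replicate 3, and CYCD3;1 (6.30 FPKM) lowest in replicate 2. Causes were not tested.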

How the results depend on the processing

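Of 184 results for named genes, 162 kept their direction and their side of the threshold under every alternative, and 22 lost, gained or turned. The counts against NSC stayed within 1.5 times under all alternatives (4562 to 5562 higher and 5328 to 6887 lower), with 5228 higher and 6148 lower under a replicate block, where samples with the same number did not deviate together (correlations of -0.22 to -0.06). Against the 5 other types, the block gave 2869 higher and 2365 lower. Leaving out 1 replicate each gave 1973 to 2812 higher and 1627 to 2554 lower there. The genes higher numbered 1710 without Xyl replicates 1 and 2, 538 without replicates 3 and 4, and 177 where each of the 5 types had to be passed, and the genes lower numbered 708 without replicates 3 and 4 and 305 against each type. Without Xyl replicates 3 and 4, TIP2;2 turned to 0.14, EXPA18 to 1.30 and PRP3 to 0.99 on the log2 scale, and the medians of the epidermis and root hair list to 0.0756, of the quiescent center list to 0.0514 and of the plastid genome to -0.0132. Without Xyl replicates 1 and 2, the medians of the cortex and quiescent center lists turned to 0.0293 and 0.0919. Under ratios of means, EXPA18 became 0.31, PRP3 0.18 and the difference of LHW from the other types -0.10. The auxin response median became -0.11 under size factors. The causes were not tested. Depth was lowest in Xyl replicate 1 (8.30 M reads), so single reads weigh most in its low values. Of the Xyl samples it still had the most genes at 1 FPKM (16521) and the fewest listed at 0 (13195).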

Other observations

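Gene families outside the lists also differed between Xyl and NSC. Of 44 tested histone genes, 30 were higher in Xyl and 6 lower, with a median log2 fold change of 1.86. AT1G09200, a histone H3, had 815, 742, 827 and 955 FPKM in Xyl, against 97.3, 92, 83.4 and 53.3 FPKM in NSC (3.37 ± 0.23), whereas RAT5, a histone H2A, had 17.3, 21, 17.1 and 16.6 FPKM in Xyl, against 73.1, 70.2, 99 and 98.4 FPKM in NSC (-2.17 ± 0.19), and near-identical histone copies make single values uncertain. Class III peroxidases, enzymes of the wall, were lower in 36 of 46 cases and higher in 2, with a median of -2.87. Of 10 tested laccases 8 were lower, and LAC6 was the 1 higher, with 5.34, 2.82, 5.63 and 2.99 FPKM in Xyl, against 2.14, 0.603, 0.264 and 0.335 FPKM in NSC (1.56 ± 0.35). Of 58 tested heat shock genes 24 were higher and 9 lower, HSP81-2, a cytosolic chaperone, rising by 3.58 ± 0.22. Of 16 light harvesting and Rubisco small subunit genes 10 were lower, LHB1B2 with a log2 fold change of -4.43.

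Genes of the plastid genome split evenly, with 19 of 88 tested higher and 20 lower than in NSC, while 42 of 70 mitochondrial genes were lower and 8 higher, 5 without Xyl replicate 1, and 33 lower and 3 higher in the fit of all 28 samples. The summed FPKM of the mitochondrial genome went the other way, at 5251 to 6289 in Xyl and 3464 to 4955 in NSC. Ribosomal RNA loci were listed lower in Xyl, unlike most ribosomal protein genes. AT2G01010, an 18S locus, had 1.23, 0.272, 0.593 and 0.764 FPKM in Xyl, against 688, 771, 826 and 557 FPKM in NSC (-8.71 ± 0.23). It reached at most 3.03 FPKM in the SCN, Protophlo, Epi/LRC, CSC and QC samples and 3083 to 9382 FPKM in CEI, so its low level was not particular to Xyl. AT2G01020 and AT3G41979, listed with identical values, had 2.15, 0.746, 0.832 and 1.54 FPKM in Xyl, against 1368, 904, 1048 and 431 FPKM in NSC (-8.59 ± 0.36). AT3G41768, a further 18S locus, had 458, 145, 369 and 405 FPKM in Xyl, against 893, 1018, 1088 and 736 FPKM in NSC (-1.54 ± 0.36). These copies are near-identical, and the assignment of their reads is uncertain.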
